A study of Mus musculus with 4 samples.

Results

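Glutathione transferases join the tripeptide glutathione to reactive compounds, or use it to reduce them, and this report follows 10 of their genes in mouse skeletal muscle. The genes are Gstk1, Gstm1, Gstm2, Gstm5, Gstp1, Gsto1, Gsta4, Gstt1, Mgst1 and Mgst3. They were chosen by name, with the low intensities of Gstk1 and Gstm2 on the knockout arrays (KO against WT, both treatments) in view, to see how far other members share them. Those KO values are therefore a description of what led to the choice. Each gene was read by its brightest transcript cluster that carries a single gene symbol, out of 22180 genes with such a cluster. Of the 10 genes, 9 had one, and each of the 9 had exactly 1. Gstm5 shared its cluster with a second gene and is given no value. All 9 measured genes passed the filter on dim genes, which kept 13258 genes.

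The samples were gastrocnemius muscle of Mus musculus, with 1 array for each of 4 groups. Wild type mice were given sodium citrate as vehicle (WT vehicle) or streptozotocin, which kills pancreatic beta cells and makes mice diabetic (WT STZ). Skeletal muscle specific KLF15 knockout mice were given the same (KO vehicle and KO STZ). STZ was given intraperitoneally at 50 mg/kg on 5 days in succession in 50 mM citrate of pH 4.5, and muscle was collected 3 weeks afterwards, per the labels' protocols. Strain, age, sex, the driver of the muscle deletion and the number of animals behind each array are stated in none of the sources used here. With 1 array per group no test could be run, and higher or lower below describes single arrays, without a replicate check.

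The 9 measured genes stand for several unrelated or distantly related classes. Kappa-class Gstk1 lies in mitochondria and peroxisomes, the mu (Gstm), alpha (Gsta), pi (Gstp), omega (Gsto) and theta (Gstt) classes are mostly cytosolic, and Mgst1 and Mgst3 sit in membranes. Liver is the best known site of these enzymes, and in muscle they act on lipid peroxidation products and other electrophiles. KLF15 is a zinc-finger transcription factor that is known in muscle for its action on amino acid and lipid metabolism.

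Median intensity ran from 5.73 to 5.96 over the arrays, and the highest value was 10392. The targeted gene Klf15 read 50.5 in WT and 19.8 in KO with vehicle, and 72.1 in WT and 16.04 in KO with STZ, so both KO arrays were below both WT arrays. The 8 fast muscle markers summed to between 47564 and 49383 on every array, as the tissue label asks. Hepatocyte markers summed to between 22.2 and 26.7, with Alb and Serpina1a below the level filter. The sum of 5 slow fibre markers was 559 in WT and 443 in KO with vehicle, and 602 in WT and 365 in KO with STZ. None of the 5 was below the filter. Of them, Myl2 went the other way with vehicle, at 0.11 in KO against WT, and was at -0.069 with STZ. The summed intensity of 7 fibroblast and tendon markers was 2763 and 2994 in WT vehicle and WT STZ, and 3231 and 3286 in KO vehicle and KO STZ. Col1a1 and Col3a1 were at least 1.5-fold higher in KO under both treatments, while 2 of the 7 were below 0 under each, Dcn (-0.043) and Scx (-0.29) with vehicle and Dcn (-0.24) and Pdgfra (-0.069) with STZ. In bulk muscle, fewer cells of a type and less RNA per cell cannot be told apart. The part of these shifts in the values below was not tested.

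Gstk1 had the lowest KO minus WT differences of the 9 members. It read 181 in WT and 67.4 in KO with vehicle, and 199 in WT and 58.3 in KO with STZ. Both KO arrays lay well under both WT arrays, and the 2 arrays of each genotype lay close to each other. With vehicle the KO level was 37.2% of that in WT, and with STZ 29.3%. On the scale of log2(intensity + 3.69), used for all differences here, KO minus WT was -1.38 under vehicle and -1.71 under STZ. Counted from the lowest of 13258 genes, those values ranked 4 and 8. STZ minus vehicle was 0.13 in WT and -0.20 in KO, much smaller than either genotype difference. Across 8 alternative ways of handling the values, the Gstk1 difference ranged from -1.41 to -1.24 under vehicle and from -1.75 to -1.53 under STZ.

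The upstream sequences of the 2 low members, of the mu-class neighbour Gstm1, of the steady member Gstp1 and of Aldh6a1, the gene whose pattern was nearest to Gstk1, are shown because KLF factors are known to bind CACCC boxes. Each run is the 250 bases before the outermost RefSeq start in build GRCm38.p6, written from 5′ to 3′ on the gene's own strand, with CACCC or its reverse complement GGGTG in capitals.
Gstk1, chr6:42245685-42245934, plus strand: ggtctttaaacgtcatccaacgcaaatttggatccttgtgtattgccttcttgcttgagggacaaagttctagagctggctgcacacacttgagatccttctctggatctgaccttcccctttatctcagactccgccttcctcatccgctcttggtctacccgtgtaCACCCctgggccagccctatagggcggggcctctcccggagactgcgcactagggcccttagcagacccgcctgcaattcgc
Gstm2, chr3:107986421-107986670, minus strand: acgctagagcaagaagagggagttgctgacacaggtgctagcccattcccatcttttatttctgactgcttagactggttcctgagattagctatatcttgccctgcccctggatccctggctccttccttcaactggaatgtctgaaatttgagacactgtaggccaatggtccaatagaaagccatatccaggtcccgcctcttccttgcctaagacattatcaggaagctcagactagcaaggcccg
Gstm1, chr3:108017974-108018223, minus strand: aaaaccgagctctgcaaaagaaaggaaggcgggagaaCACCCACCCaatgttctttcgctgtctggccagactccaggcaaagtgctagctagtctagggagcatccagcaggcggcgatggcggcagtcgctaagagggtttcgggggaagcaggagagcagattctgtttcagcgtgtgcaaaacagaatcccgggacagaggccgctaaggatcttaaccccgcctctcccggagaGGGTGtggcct
Gstp1, chr19:4037913-4038162, minus strand: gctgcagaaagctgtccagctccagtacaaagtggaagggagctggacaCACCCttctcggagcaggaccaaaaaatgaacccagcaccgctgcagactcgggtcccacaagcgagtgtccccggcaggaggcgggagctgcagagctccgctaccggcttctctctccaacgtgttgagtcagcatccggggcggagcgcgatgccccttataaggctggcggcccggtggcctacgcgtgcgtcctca
Aldh6a1, chr12:84451025-84451274, minus strand: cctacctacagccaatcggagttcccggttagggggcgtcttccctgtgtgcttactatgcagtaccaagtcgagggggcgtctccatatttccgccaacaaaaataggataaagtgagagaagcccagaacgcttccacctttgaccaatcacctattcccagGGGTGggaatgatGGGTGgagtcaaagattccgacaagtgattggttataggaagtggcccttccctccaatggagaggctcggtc

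The Gstk1 run held 1 such box, 82 bases before the start. The Gstm2 run held 0. Gstm1 held 3 counting both strands, of which 2 overlap at 213 and 209 bases before the start, and the third lay at 11. Gstp1 held 1, at 201 bases, and Aldh6a1 held 2, at 86 and 73. Of 9 listed members with an entry in the promoter table, 6 held at least 1 CACCC box on either strand. Of 32851 promoter entries of the same length, 52% did, so the motif is common. The antioxidant response motif TGACNNNGC, searched on both strands, was in the upstream bases of 2 of the 9, Gstm5 and Mgst1, against 10.2% of all entries. These matches are letters in a window and say nothing about binding, and their part in the KO values was not tested.

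The mu-class genes, Gstm5 included, lie close together on chromosome 3 in RefSeq GRCm38.p6, with other gene models between some of them. Those with a cluster of their own follow in the order Gstm7, Gstm6, Gstm3, Gstm2, Gstm1 and Gstm4. Their proteins are cytosolic enzymes that act on many aromatic and epoxide electrophiles, and their sequences are alike enough that probes of 1 gene can pick up another. Gstm2 read 22.4 in WT and 12.5 in KO with vehicle, and 35.1 in WT and 21.8 in KO with STZ. Within each treatment KO lay below WT, yet KO STZ and WT vehicle were nearly equal. The KO level was 55.9% of the WT one with vehicle and 62.1% with STZ, and the log2 differences were -0.69 and -0.61. Gstm2 was also the member with the largest STZ differences, at 0.58 in WT and 0.65 in KO, which put the STZ arrays at 157% and 174% of vehicle. Because Gstm2 is dim, its values depend on the offset: with an offset of 16 its KO difference was -0.43 under vehicle and -0.44 under STZ.

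Gstm1 read 90.2 in WT and 71.2 in KO with vehicle, and 88.3 in WT and 62.5 in KO with STZ. Both KO arrays were below both WT arrays, at 78.9% of the WT level with vehicle and 70.8% with STZ. The log2 differences of -0.33 and -0.47 did not reach 1.5-fold, which is 0.58 on this scale. Gstm1 was not higher with STZ, at -0.028 in WT and -0.18 in KO. Gstm4, of the same class, stood at -0.16 under vehicle and -0.30 under STZ, and Gstm7 at -0.13 and -0.27. Of 6 mu-class genes with a cluster of their own, 4 passed the level filter. Leaving out Gstm2, which led to the list, the other 3 lay below 0 in KO under both treatments, as did 32.7% of all genes. Gstm6 and Gstm3 were below the filter, where differences carry little. They stood at -0.15 and -0.13 under vehicle, and above WT under STZ, at 0.13 and 0.14. Gstm7 was close to the filter of 5.81, reading from 5.91 to 8.19, so its differences carry little too. Outside the family, the neighbour Ampd2 stood at 0.021 under vehicle and 0.34 under STZ, and Csf1 at -0.18 and -0.36. The 3 genes past the filter that follow Gstk1 on chromosome 6 were at 0.098 and 0.21 (Tmem139), 0.40 and 0.22 (Casp2) and -0.30 and -0.21 (Clcn1) under vehicle and STZ. The 3 before it lie farther off, with 41 to 100 genes between. They were at -0.11 and -0.088 (Gm5409), 0.31 and -0.44 (Try4) and -0.094 and -0.41 (Ssbp1). None on either side was near the Gstk1 values. These neighbours of Gstk1 and Gstm2 were chosen after other values had been seen.

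**Figure D1:**
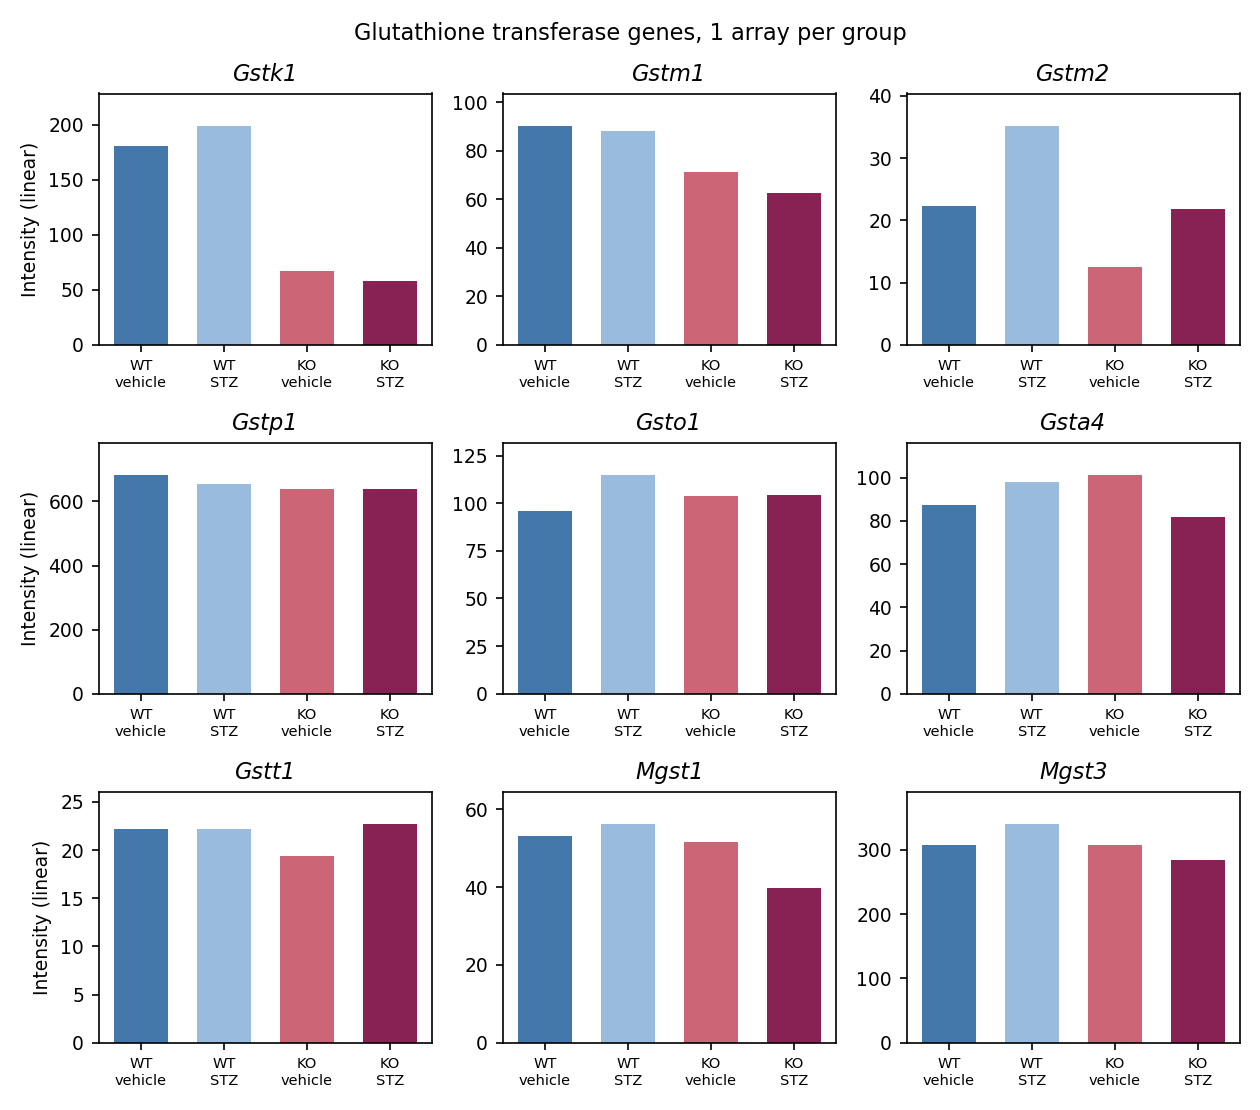
Intensity on a linear axis from 0 for each of the 9 measured genes, 1 bar per array in the order WT vehicle, WT STZ, KO vehicle and KO STZ, each panel with its own axis. Gstk1 had a high WT pair (181 and 199) and a low KO pair (67.4 and 58.3), Gstm2 was higher on the STZ array of each genotype, and Gstp1 stayed between 639 and 682.

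The other cytosolic members differed little between genotypes. Gstp1, the pi-class enzyme, read 682 in WT and 639 in KO with vehicle, and 654 in WT and 639.9 in KO with STZ, a spread of 0.094 on the log2 scale and the narrowest of the 9. KO minus WT was -0.094 under vehicle and -0.032 under STZ, the latter 0.18 under quantile normalization. Gsto1, an omega-class enzyme with thiol transferase activity, read 96.1 in WT and 103.6 in KO with vehicle, and 114.7 in WT and 104.5 in KO with STZ. WT STZ was its highest array and the KO arrays were almost equal, so its KO difference was 0.11 under vehicle and -0.13 under STZ. The STZ value turned to 0.021 under quantile normalization, and no direction is drawn from it.

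Gsta4, an alpha-class enzyme that is known to act on hydroxynonenal, an aldehyde from oxidized lipids, read 87.5 in WT and 101.1 in KO with vehicle, and 97.9 in WT and 81.6 in KO with STZ. KO was above WT under vehicle, at 0.20, and below it under STZ, at -0.25, which quantile normalization brought to -0.088. Gstt1, the theta-class member, read 22.1 in WT and 19.4 in KO with vehicle, and 22.2 in WT and 22.7 in KO with STZ. Its KO difference was -0.16 under vehicle and 0.027 under STZ, the latter of other sign in 1 of 8 alternatives. Of the 8, only quantile normalization, median scaling and loess can change such a sign. The KO vehicle array alone was apart from the other 3, and by little.

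The membrane-bound members were level under vehicle and lower in KO under STZ. Mgst1, which lies in the endoplasmic reticulum and the outer mitochondrial membrane, read 53.2 in WT and 51.5 in KO with vehicle, and 56.2 in WT and 39.7 in KO with STZ. The KO STZ array was the low one, and KO minus WT was -0.043 under vehicle and -0.46 under STZ. Mgst3, a microsomal enzyme with glutathione peroxidase activity, read 308 in WT and 307 in KO with vehicle, and 339.8 in WT and 284 in KO with STZ. Its KO difference was -0.0051 under vehicle and -0.26 under STZ, the latter -0.072 under quantile normalization. Fat cells also express Mgst1, and adipocyte markers were lowest on the same array. The 6 measured adipocyte markers summed to 1093 in WT and 1108 in KO with vehicle, and 1363 in WT and 882 in KO with STZ, with Lep below the level filter. All 5 that passed the filter were below 0 in KO STZ against WT STZ, with a median of -0.48. Their part in the Mgst1 and Mgst3 values was not tested.

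Over the 9 measured members, 2 were at least 1.5-fold below WT on the KO vehicle array, against 0.777% of all genes, and 0 were higher, against 0.581%. The 2 were Gstk1 and Gstm2, the genes that led to the list, so nothing is read from that count. In KO STZ against WT STZ the same 2 were at least 1.5-fold lower, against 2.81% of all genes, and 0 were higher, against 0.845%. Under quantile normalization, loess or an offset of 16, Gstm2 was short of 1.5-fold in this comparison, which left 1. Gstk1 alone was at least 2-fold lower, against 0.0754% of all genes under vehicle and 0.287% under STZ. The member median was -0.094 under vehicle, beside -0.0039 for all genes, and -0.26 under STZ, beside -0.048. Gstk1 and Gstm2 are part of these medians and of the counts under STZ too, so nothing is read from those either.

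Leaving out Gstk1 and Gstm2, the other 7 measured members had KO differences from -0.33 to 0.20 under vehicle, with a median of -0.043 and 5 below 0. Under STZ they ran from -0.47 to 0.027, with a median of -0.25 and 6 below 0, of which Gstp1 and Gsto1 changed sign under quantile normalization. The all-gene medians were -0.0039 under vehicle and -0.048 under STZ, so more of all genes lay below 0 than above it too. Their share under each treatment was not counted, and nothing is read from the 5 and the 6. None of the 7 was 1.5-fold apart in either comparison. Of all genes, 0.777% were lower by that fold and 0.581% higher under vehicle, and 2.81% and 0.845% under STZ. A count of 0 among 7 is near those shares, and nothing is read from it. Bright genes as a class were low in KO STZ against WT STZ: for the 7212 genes above percentile 75 of level, the median was -0.11. Under quantile normalization the median of the 7 was -0.072, and the part of the bright-gene shift in the values of the 7 was not tested. Of the same 7, 4 were below 0 under both treatments, beside 32.7% of all genes: Gstm1, Gstp1, Mgst1 and Mgst3. Of these, Gstp1 (under STZ) and Mgst3 (under vehicle) changed sign in 2 of 8 alternatives each. Of the 8, only quantile normalization, median scaling and loess could change these signs.

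**Figure D2:**
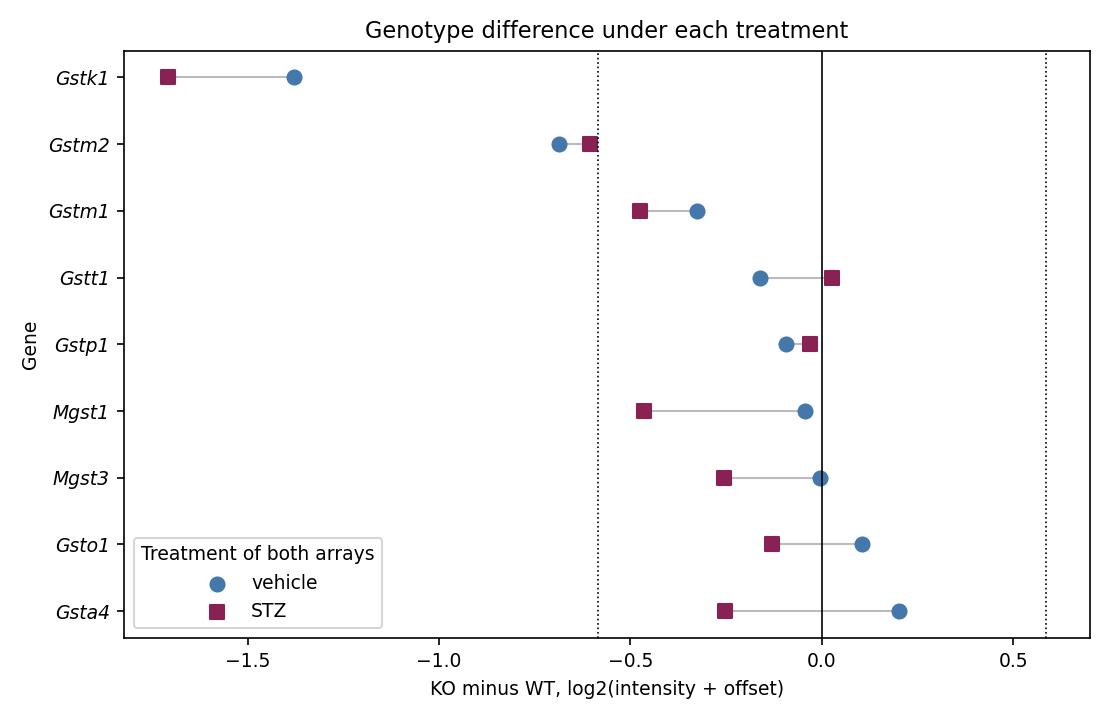
KO minus WT on the log2(intensity + 3.69) scale for each of the 9 measured genes, circles for the vehicle arrays and squares for the STZ arrays, with dotted lines at 1.5-fold. Gstk1 and Gstm2 lie past the lower dotted line under both treatments, and the other 7 genes lie inside both lines.

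**Figure D3:**
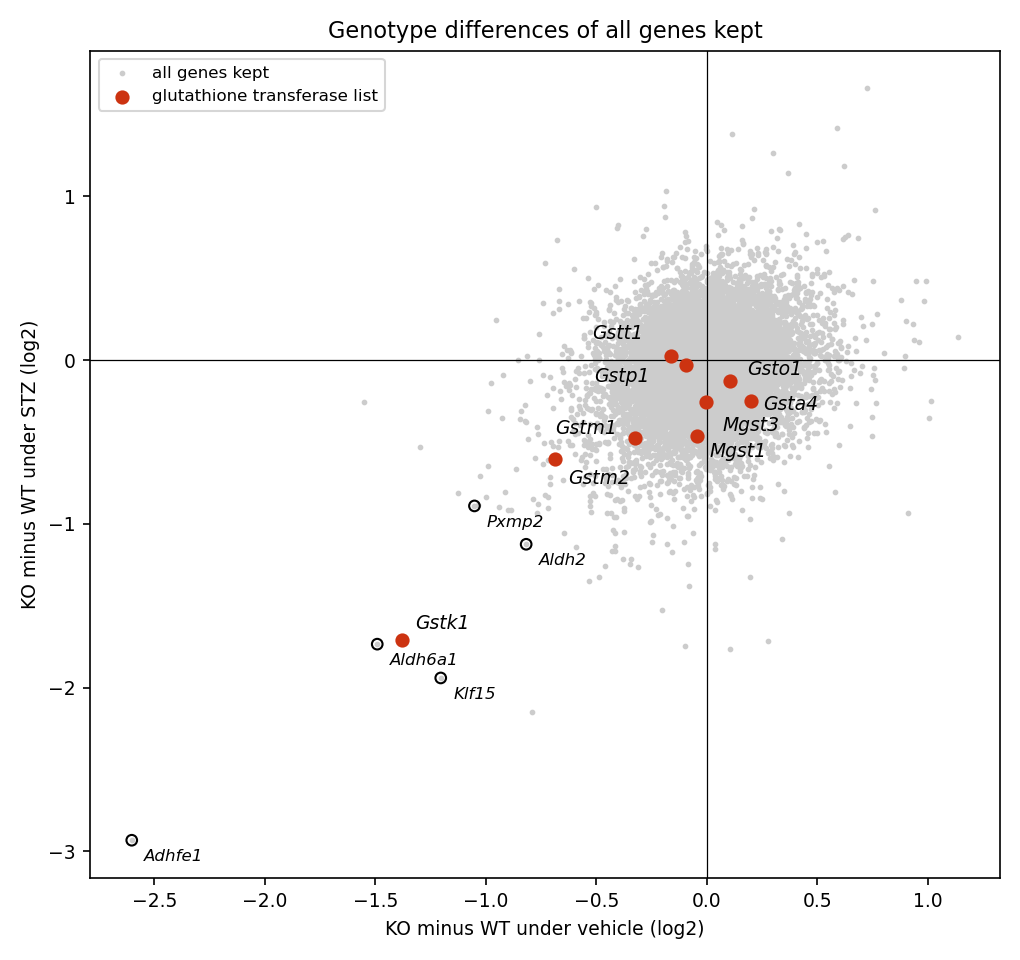
KO minus WT under vehicle (horizontal axis) and under STZ (vertical axis), both in log2 units, for 13258 genes in grey, the 9 measured glutathione transferase genes in red and 5 further genes as open circles. Gstk1 stands at -1.38 and -1.71, next to Aldh6a1 and Klf15, while 7 of the 9 lie within the grey cloud near 0.

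Apart from Gstm2, no member was 1.5-fold apart between STZ and vehicle. The largest differences among the rest were those of Mgst1 and Gsta4 in KO. They ranked 12422 and 11978 from the highest of 13258 genes. In WT STZ against WT vehicle, 0 of 9 members were at least 1.5-fold higher, against 1.27% of all genes, and 0 lower, against 0.445%. Gstm2 was just short of that fold at 0.58 and passed it with an offset of 1, at 0.63. Next came Gsto1 at 0.25, Gsta4 at 0.16, Mgst3 at 0.14 and Gstk1 at 0.13. In all, 7 of 9 were above 0, counting Gstt1, which was at 0.0022 and changed sign in 2 of 8 alternatives. The median was 0.13 beside 0.0075 for all genes. How many of all genes lay above 0 was not counted, so nothing is read from the 7. In KO STZ against KO vehicle, Gstm2 alone was at least 1.5-fold higher, against 0.445% of all genes, and 0 members were lower by that fold, against 0.656%. With an offset of 16 its value of 0.41 was below that fold. Mgst1 stood at -0.35, Gsta4 at -0.30, Gstk1 at -0.20, Gstt1 at 0.19, Gsto1 at 0.012 and Gstp1 at 0.0027. The median was -0.11 beside -0.032 for all genes.

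Between the genotypes, the STZ differences (KO minus WT) were 1.5-fold or more apart in 0 of 9 members, against 3.91% of all genes on the lower side and 1.76% on the higher side. This value was lowest in Gsta4 (-0.45) and Mgst1 (-0.42), followed by Gstk1 (-0.33), Mgst3 (-0.25) and Gsto1 (-0.23), and was 0.079 in Gstm2 and 0.19 in Gstt1. The Gstm2 differences with STZ were thus of like size in both genotypes, though 1 array per group gives no interval for that.

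The genes with the pattern most like Gstk1 over the 4 arrays were found by the Euclidean distance between log2 values after each gene's own mean was taken off. Aldh6a1, a mitochondrial dehydrogenase of valine breakdown, was nearest at 0.093. It read 368 in WT and 128.6 in KO with vehicle, and 381 in WT and 111.8 in KO with STZ. Klf15 itself came next at 0.25, then Aldh2, the mitochondrial aldehyde dehydrogenase that clears acetaldehyde, at 0.58. Egr1, an early response transcription factor, was at 0.602, Wnt4 at 0.63 and the peroxisomal membrane protein gene Pxmp2 at 0.64. All 6 were lower on both KO arrays than on both WT arrays, as the measure selects for.

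The 6 genes most like Gstm2 were Htra4 (0.26), Gnpnat1 (0.26), Zfp825 (0.28), Olfr887 (0.29), Ppp1cc (0.303) and Zfp758 (0.31). No further family member was among them. The nearest gene to Gstm2 was farther from it than Aldh6a1 was from Gstk1. The farthest of its 6, Zfp758 at 0.31, was nevertheless nearer than Pxmp2 was to Gstk1, at 0.64. Over 4 arrays, many genes can share a pattern through noise, and how many would was not tested.

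**Figure D4:**
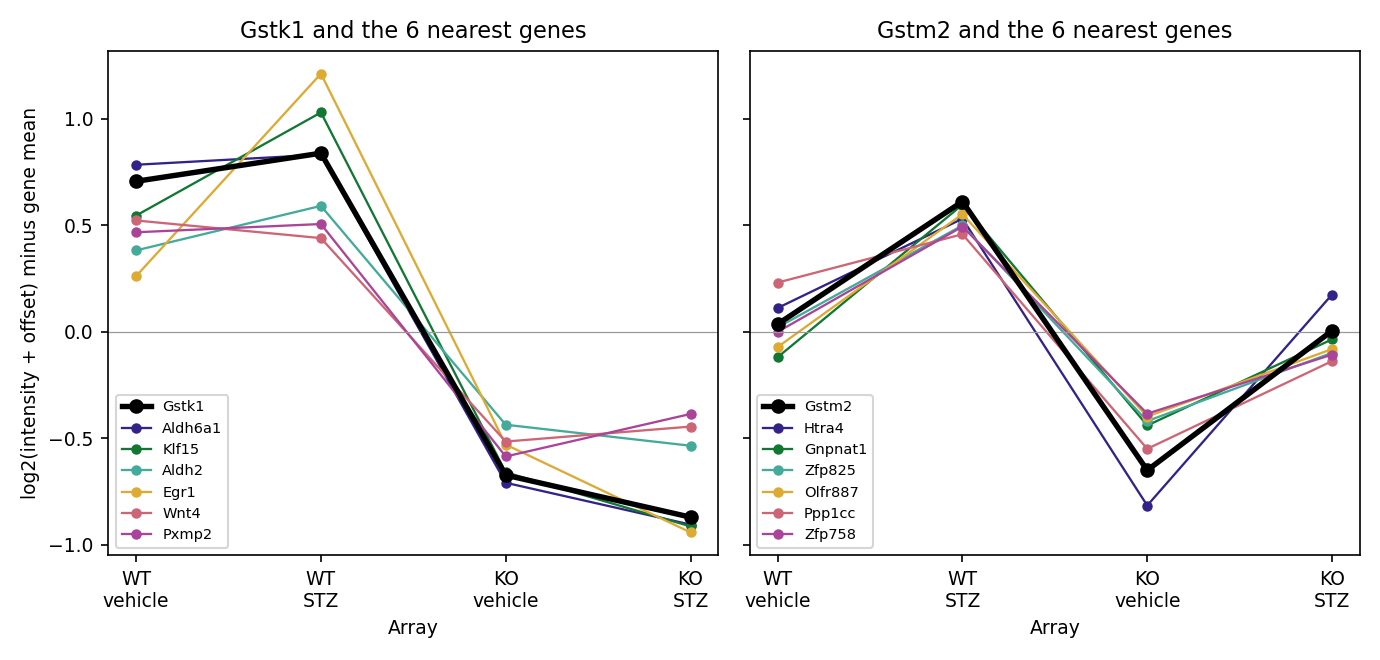
Log2(intensity + 3.69) minus the gene's own mean over the 4 arrays, with lines that join the arrays of 1 gene, for Gstk1 (left, black) and Gstm2 (right, black) and the 6 genes nearest to each. The line of Aldh6a1 (distance 0.093) nearly covers that of Gstk1, and the genes near Gstm2 share its high WT STZ and low KO vehicle values.

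Further genes of the family were taken from a list of 27 that also holds relatives with the transferase fold. Of these, 22 had a cluster of their own and 13 passed the level filter. The 9 that did not were Gsta3, Gstm3, Gstm6, Gsto2, Gstt3, Gstt4, Gstcd, Mgst2 and Hpgds, with intensities from 3.57 to 7.94 on single arrays. In KO vehicle against WT vehicle 1 of 13 was at least 1.5-fold lower, beside 0.777% of all genes, 0 were higher, beside 0.581%, and the median was 0.015, beside -0.0039. That gene was Gdap1, a mitochondrial outer membrane protein mutated in inherited neuropathy, at -0.66. It read 55.7 in WT and 33.8 in KO with vehicle, and 32.5 in WT and 28.1 in KO with STZ, so the WT vehicle array was high and the other 3 were close. Alox5ap, which presents arachidonic acid for leukotriene synthesis, stood at 0.36 and Gstp3 at 0.27.

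In KO STZ against WT STZ, 1 of the 13 was at least 1.5-fold higher, beside 0.845% of all genes, and 0 were lower, beside 2.81%. The median was -0.12, beside -0.048 for all genes, and turned positive in 1 of 8 alternatives. The 1 higher gene was Gstp2, a close copy of Gstp1 whose probes can cross-react, at 0.71. It read 264.6 in WT and 296.9 in KO with vehicle, and 258 in WT and 425.9 in KO with STZ, so KO STZ alone was high. Gstp1 did not share this, at -0.032. Ptges2, a prostaglandin E synthase, stood at 0.33 and Gstp3 at 0.30.

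Genes that make, export and break down glutathione had a median a little above 0 in KO against WT under vehicle. It was 0.071, beside -0.0039 for all genes, and 13 of the 16 that passed the filter were above 0. The share of all genes above 0 was not counted. Of the 16, 0 were 1.5-fold lower, beside 0.777% of all genes, and 0 were higher, beside 0.581%. Counts of 0 are near those shares, and nothing is read from them. Anpep, a peptidase, stood at 0.31, Dpep1, a dipeptidase that acts on glutathione conjugates, at 0.30 and Gclc, the catalytic subunit of the first step of synthesis, at 0.14. Under STZ, 1 of 16 was 1.5-fold lower, beside 2.81% of all genes. Of the 16, 13 were below 0, with a median of -0.19, beside -0.048 for all genes and -0.11 for the bright ones. With those medians below 0, more of all genes were below 0 than above it. Their share was not counted, so nothing is read from the 13. Chac2, which degrades glutathione, stood at -0.87, Gclm, the modifier subunit of the first step, at -0.49 and Lap3, an aminopeptidase, at -0.47.

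Of genes of glutathione reduction and the peroxidases, 15 passed the filter. Under vehicle 0 of 15 were 1.5-fold lower, beside 0.777% of all genes, 0 were higher, beside 0.581%, and 8 were below 0. Idh1, a source of cytosolic NADPH, stood at 0.39, Glo1, which clears methylglyoxal with glutathione, at -0.24 and Gpx7 at 0.24. The median of the 15 was -0.042 and changed sign in 5 of 8 alternatives. Under STZ, 2 of 15 were 1.5-fold lower, beside 2.81% of all genes: Idh2, the mitochondrial NADPH source, at -0.77 and the secreted peroxidase Gpx3 at -0.65, and Glrx stood at -0.32. The median under STZ was -0.15, but -0.029 under loess and -0.00031 under quantile normalization.

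The 16 NRF2-type antioxidant genes past the filter hold known NRF2 targets and related enzymes. Under vehicle 0 of 16 were 1.5-fold lower, beside 0.777% of all genes, and 0 were higher, beside 0.581%, with a median of 0.027. Ephx1, the microsomal epoxide hydrolase, stood at 0.50, Srxn1 at 0.35 and Aox1 at 0.32. Under STZ 2 of 16 were 1.5-fold lower, beside 2.81% of all genes: Nqo1, a quinone reductase, at -0.73 and Cat, the catalase, at -0.68, and Hmox1, the inducible heme oxygenase, stood at -0.52. Nqo1 read 92.1 in WT and 89.1 in KO with vehicle, and 147.8 in WT and 87.8 in KO with STZ, so WT STZ alone was high. Gstk1, in contrast, was as low in KO vehicle as in KO STZ, to within 0.20. The median under STZ was -0.21, and its highest value over the alternatives was -0.045.

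Since Gstk1 lies in peroxisomes and mitochondria, genes of both compartments were set beside it. Of 17 peroxisome genes, 1 passed 1.5-fold on the lower side with vehicle (0.777% of all genes did), Pxmp2 at -1.05, and 0 were higher (0.581%). Amacr stood at 0.35 and Abcd3 at -0.32, and the median was -0.039. Under STZ 3 of 17 were lower, beside 2.81% of all genes: Pxmp2 at -0.89, Ech1, an auxiliary enzyme of unsaturated fatty acid oxidation, at -0.74 and Cat at -0.68. Acaa1a, a peroxisomal thiolase with a close copy, was 1.5-fold higher (0.845% of all genes were) at 0.65 and is named after its value was seen. Of 14 mitochondrial detoxification genes, 4 passed 1.5-fold on the lower side with vehicle, beside 0.777% of all genes: Adhfe1 (-2.60), Aldh6a1 (-1.49), Aldh2 (-0.82) and Aldh4a1 (-0.81), the last named outside the rule. Under STZ 3 were lower, beside 2.81% of all genes: Adhfe1 (-2.93), Aldh6a1 (-1.74) and Aldh2 (-1.13). This list was made with these low dehydrogenases already known, so its count lends no support. Its remaining genes under vehicle included Mpst, a sulfurtransferase, at -0.54 and Gsr, the glutathione reductase, at 0.19, both given after their values were seen.

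**Figure D5:**
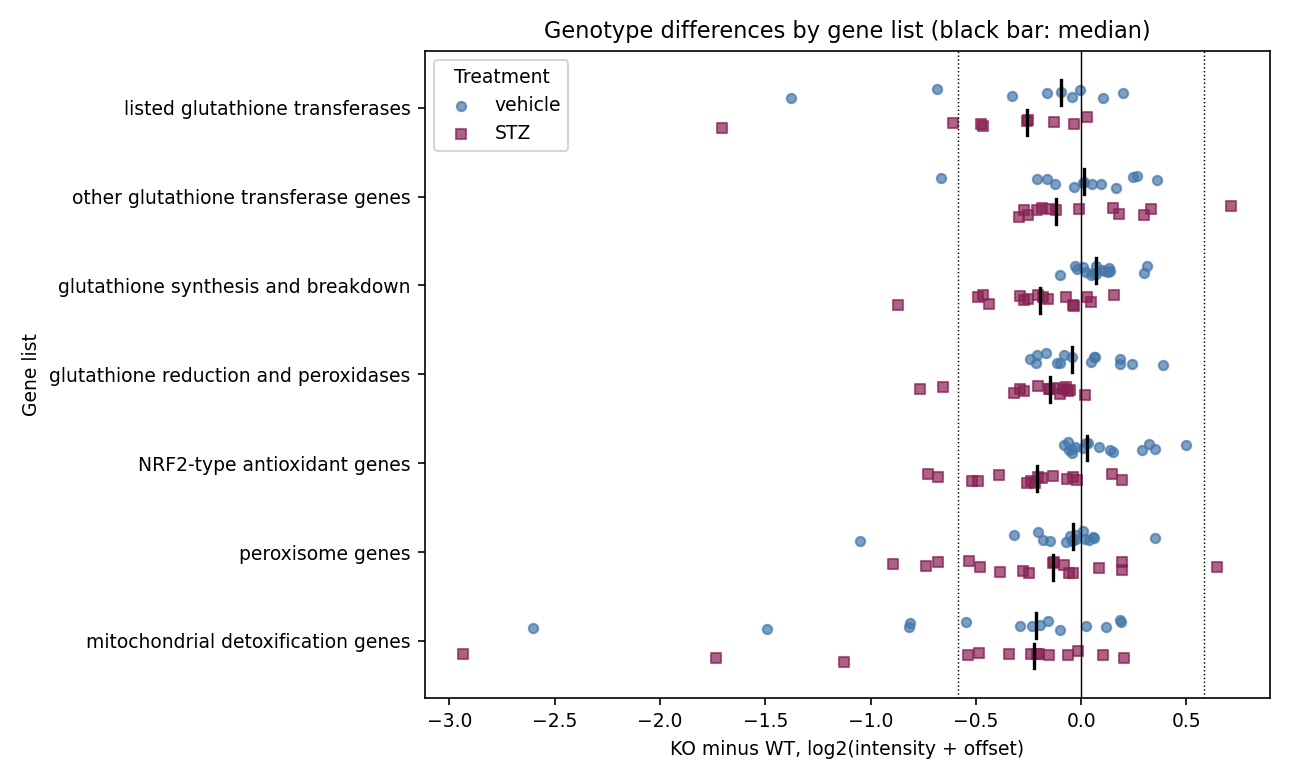
KO minus WT on the log2(intensity + 3.69) scale for the genes past the level filter in the 9 measured members and in 6 related lists, circles for vehicle and squares for STZ, with black bars at the medians and dotted lines at 1.5-fold. Under vehicle the medians of the lists lie from -0.21 to 0.071 with few genes past the lines. Under STZ all 7 medians are below 0, as was that of all genes (-0.048). The median of the other family genes turned positive in 1 of 8 alternatives. The highest alternative was -0.00031 for glutathione reduction and peroxidases and -0.0057 for peroxisome genes.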

How the data were processed

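The deposited table holds linear intensity values for 41345 transcript clusters of Affymetrix arrays, processed by the authors. How they corrected background, summarised probes and scaled arrays is stated in none of the sources used here. Per the labels' protocols, 4 ug of total RNA per array was turned into biotin-labelled cRNA. Genes were named through the platform annotation: 23521 clusters had 1 symbol, 1814 had several and 16010 were not listed, and a gene took its brightest single-symbol cluster. Values were turned into log2(intensity + 3.69), the offset being percentile 25 of all values, which understates changes of dim genes. Array medians lay within 0.035, so no scaling was added. Those medians lie close to the level filter and do not speak for brighter genes. For the 7212 genes above percentile 75 of level, the median KO minus WT difference was -0.014 under vehicle and -0.11 under STZ. Genes with a mean above the median of all clusters, an intensity of 5.81, were kept. Differences between arrays were described at 1.5-fold and 2-fold, with no test, and the number of arrays limits the precision. The counting step was run on shuffled differences of these data, and the scaling steps on these arrays, each with known changes added. Named genes were the members, Klf15, the 3 largest genotype differences per list and treatment, and the 6 genes nearest to Gstk1 and Gstm2. The members, lists and rules were chosen with earlier results of these data known. Upstream sequences come from RefSeq. Python 3.11.15, pandas 2.3.3 and statsmodels 0.14.6 were used. The alternatives were quantile normalization, median scaling, loess with a span of 0.3, offsets of 1 and 16, the mean of all clusters, no level filter, and a filter at percentile 75. The filter settings act on lists and counts and leave the value of a single gene as it is. The offsets cannot change the sign of a single gene's difference between 2 arrays.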

Additional observations from a re-analysis of the deposited data

Results flagged for a closer look

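For 5 of the 9 measured members, the STZ array was above vehicle in 1 genotype and below it in the other. STZ in KO minus STZ in WT was -0.45 for Gsta4, -0.42 for Mgst1, -0.33 for Gstk1, -0.25 for Mgst3 and 0.062 for Gstp1. The difference between the genotypes was not tested, because each group is 1 array, and 48.5% of all 13258 genes also had STZ differences of opposite sign. For Gsta4, Mgst1, Gstk1 and Mgst3, the WT value stayed above 0 and the KO value below 0 in all 8 alternatives, and for Gstp1 the KO value changed sign in 1. The filter settings and the mean of all clusters, which are among the 8, cannot change these values.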

How the results depend on the processing

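No paired analysis was possible because each group has 1 array, and for the same reason no array could be left out. The KO differences of Gstk1, Gstm1 and Gstm2 stayed below 0 in all 8 alternatives under both treatments. No member that was 1.5-fold apart changed sign in any of the 8. Only quantile normalization, median scaling and loess could have changed these signs. The member median in KO STZ against WT STZ was -0.26, and -0.088 under quantile normalization and -0.13 under loess. The median of the STZ difference in KO minus that in WT was -0.23, and -0.11 and -0.12 under the same settings. The count of members at least 1.5-fold lower in KO STZ went from 2 to 1 under quantile normalization, loess and an offset of 16, and in KO vehicle from 2 to 1 with an offset of 16. Each time Gstm2 was the gene that left. The count at least 1.5-fold higher with STZ, again Gstm2, went from 1 to 0 in KO with an offset of 16, and from 0 to 1 in WT with an offset of 1. Of 1240 values of single genes and related lists over the alternatives, 80 moved by 0.1 or more on the log2 scale, or by more than 1.5 times for a count. Each member was read by 1 cluster, so the mean of all clusters changes no member's value. The settings of the level filter change no single gene's value either. Such fixed values are among the 1240, so the 80 understate how far the results depend on the processing. For single members, only quantile normalization, median scaling, loess and the offsets of 1 and 16 could alter a value.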
